A study of Mus musculus with 4 samples.

Results

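The genes of the mouse major histocompatibility complex (MHC), the H2 genes of chromosome 17, were examined together with the genes that load peptides onto MHC molecules and that switch MHC genes on. The members were all genes on chromosome 17 whose symbol starts with H2-, the chromosome 17 genes Tap1, Tap2, Psmb8, Psmb9 and Tapbp, and Nlrc5, Ciita and B2m on other chromosomes. This rule gave 58 genes, of which 43 were protein-coding and 11 were pseudogenes on assembled chromosomes. The other 4, H2-Q8, H2-Q9, H2-T18 and H2-D4, lay on extra scaffolds of the gene table, so they could be given no region and were not analysed here. Chromatin accessibility had been measured by ATAC-seq, which tags DNA that a transposase can reach, in CD4+ naive T cells, the helper T cells that have not yet met antigen. There were 2 libraries labelled DDX55 KO, from knockout mice for the RNA helicase DDX55, and 2 labelled WT, all from cells purified from spleen and pLN. The sources used here do not give the age, sex or strain of the mice, the way in which DDX55 was deleted or whether replicates were separate animals.

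The data analysed here are 1 joint list of 64525 accessible regions for the 4 libraries on build mm10, of which 64233 lay on assembled chromosomes. The list gives positions and no value per library or genotype. DDX55 KO and WT libraries therefore cannot be told apart in any value below, no spread between libraries can be given, and the depth is unknown. A difference between 2 sets of genes has no test here, because genes are not replicates and neighbouring genes share regions. The background of a share is that over the 21843 protein-coding genes on assembled chromosomes, or over the 17492 of them with a promoter sequence where promoters are counted. Intervals are 95% exact (Clopper-Pearson) binomial intervals that cover counting error over genes only. The cell type label was checked against marker genes. All 12 markers of naive CD4 T cells had a region within 1 kb of a gene end, among them Cd3e, Cd4, Lck, Tcf7, Lef1 and Ccr7. The same held for 1 of 2 CD8 T cell markers, 2 of 8 B cell markers, 4 of 10 dendritic cell and macrophage markers and 1 of 3 natural killer cell markers. Over all protein-coding genes the share was 52.7%, which lay inside the 95% exact intervals of the CD8 T cell (1.26 to 98.7%), B cell (3.19 to 65.1%), dendritic cell and macrophage (12.2 to 73.8%) and natural killer cell markers (0.84 to 90.6%), and below that of the naive CD4 T cell markers (73.5 to 100%).

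MHC class I molecules show peptides from inside the cell to CD8 T cells and are carried by nearly all nucleated cells. Their peptides are cut by the proteasome, in part with the immunoproteasome subunits encoded by Psmb8 and Psmb9, pumped into the endoplasmic reticulum by the Tap1 and Tap2 transporter and loaded with the help of tapasin, the product of Tapbp. B2m encodes the light chain of class I molecules, and Nlrc5 encodes a transactivator of class I genes. MHC class II molecules show peptides from taken-up protein to CD4 T cells. In mice they are made mainly by B cells, dendritic cells, macrophages and thymic epithelium, under the control of the transactivator encoded by Ciita, and little by T cells. Class II promoters carry an X box, bound by the RFX complex, and a Y box, an inverted CCAAT element bound by NF-Y.

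Promoter sequences were taken from RefSeq (GRCm38.p6, the assembly that mm10 names), which held an entry for 37 of the 43 protein-coding members. Each entry runs from 250 bases before an annotated start site to 50 bases after it. The promoters of H2-K1 and H2-D1, the classical class I genes, and of B2m are shown because they were accessible and carried motifs of the NF-kB family. Capitals mark exact matches to GGANTNNCC (NF-kB) and GAAANNGAA (interferon-stimulated response element) on either strand. Variant forms of these elements are not marked. H2-M10.2 is shown with the same marking as a class I promoter with neither motif and no accessible region.
H2-K1 (chr17:34000298-34000597, minus strand): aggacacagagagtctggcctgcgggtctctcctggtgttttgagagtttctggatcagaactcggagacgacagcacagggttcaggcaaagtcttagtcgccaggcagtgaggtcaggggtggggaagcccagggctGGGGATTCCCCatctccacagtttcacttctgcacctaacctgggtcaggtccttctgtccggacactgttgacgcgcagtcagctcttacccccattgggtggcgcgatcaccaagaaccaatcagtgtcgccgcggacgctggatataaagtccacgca
H2-D1 (chr17:35262844-35263143, plus strand): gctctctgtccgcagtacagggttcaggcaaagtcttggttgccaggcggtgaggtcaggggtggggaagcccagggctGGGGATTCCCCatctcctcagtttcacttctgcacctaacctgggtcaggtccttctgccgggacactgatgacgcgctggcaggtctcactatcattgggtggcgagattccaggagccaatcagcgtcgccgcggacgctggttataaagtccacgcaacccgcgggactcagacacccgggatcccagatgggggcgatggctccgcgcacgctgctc
B2m (chr2:122147437-122147736, plus strand): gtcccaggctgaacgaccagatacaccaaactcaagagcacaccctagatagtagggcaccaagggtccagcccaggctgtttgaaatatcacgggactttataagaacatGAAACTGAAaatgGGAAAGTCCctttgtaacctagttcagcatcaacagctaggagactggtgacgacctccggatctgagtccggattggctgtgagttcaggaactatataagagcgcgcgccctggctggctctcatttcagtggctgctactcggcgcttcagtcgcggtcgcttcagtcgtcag
H2-M10.2 (chr17:36286372-36286671, minus strand): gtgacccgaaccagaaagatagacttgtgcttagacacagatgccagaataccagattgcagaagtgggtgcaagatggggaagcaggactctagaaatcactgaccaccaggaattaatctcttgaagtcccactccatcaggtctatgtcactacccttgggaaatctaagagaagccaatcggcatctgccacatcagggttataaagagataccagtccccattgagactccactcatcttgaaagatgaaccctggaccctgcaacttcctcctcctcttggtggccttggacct

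Among class II promoters, H2-Aa and H2-Eb1 are shown as accessible ones, and H2-Eb2 as the class II promoter that carried both boxes of H2-Eb1 and no region. H2-Aa matched the CCAAT element alone. Capitals mark matches to CCAAT, which reads ATTGG on the other strand, and to AGNAACNG (X box).
H2-Aa (chr17:34287774-34288073, minus strand): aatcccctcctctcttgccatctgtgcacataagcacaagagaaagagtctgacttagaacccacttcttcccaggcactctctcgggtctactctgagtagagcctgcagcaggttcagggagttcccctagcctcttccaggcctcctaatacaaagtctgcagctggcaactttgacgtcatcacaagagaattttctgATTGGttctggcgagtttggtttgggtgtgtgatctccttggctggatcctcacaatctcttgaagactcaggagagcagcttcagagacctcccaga
H2-Eb1 (chr17:34305617-34305916, plus strand): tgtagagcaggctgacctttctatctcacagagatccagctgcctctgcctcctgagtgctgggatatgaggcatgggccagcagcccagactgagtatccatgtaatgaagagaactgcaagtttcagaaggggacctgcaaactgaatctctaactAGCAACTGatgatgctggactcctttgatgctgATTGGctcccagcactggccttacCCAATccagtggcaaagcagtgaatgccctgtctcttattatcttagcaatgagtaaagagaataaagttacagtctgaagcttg
H2-Eb2 (chr17:34325425-34325724, plus strand): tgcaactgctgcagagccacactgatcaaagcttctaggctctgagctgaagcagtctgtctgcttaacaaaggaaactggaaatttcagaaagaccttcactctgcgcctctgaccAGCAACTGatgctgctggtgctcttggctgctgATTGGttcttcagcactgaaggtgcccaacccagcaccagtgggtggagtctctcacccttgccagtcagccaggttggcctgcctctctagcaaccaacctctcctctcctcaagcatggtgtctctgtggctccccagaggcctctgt

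Accessible regions were found at the ends of nearly all class I genes of the K, D, Q and T families and of nearly all class II genes, whereas the M family of class I was almost without them. A gene was counted when any base of a region fell within 1 kb of one of its annotated ends, inside or outside the gene. Of the 25 protein-coding class I genes, 12 had such a region (48%, 95% exact interval 27.8 to 68.7%). Of the 9 class II genes, 8 had one (88.9%, 51.8 to 99.7%). Among all protein-coding genes the share was 52.7%, so class I as a whole lay near the background and class II above it, with an interval that still includes the background. With only regions of at least the median width of 294 bp, the class II count was 5 of 9 (55.6%), against 48.2% of all protein-coding genes. The class I share was made of unlike parts. It was 11 of 13 (84.6%, 54.6 to 98.1%) for the K, D, Q and T families and 1 of 12 (8.33%, 0.211 to 38.5%) for the M family. Among the 130 other protein-coding genes between the outermost H2 genes, 73 had a region at an end (56.2%).

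Counts inside genes and with flanks were also higher for class II than for class I as a whole. They were not higher than for class I without the M family. A region lay inside the gene for 15 of 25 class I genes and 7 of 9 class II genes, with a background of 65.6%. Without the M family, 12 of 13 class I genes had one inside. Within the gene or 10 kb on either side, 19 of 25 class I genes and all 9 class II genes had a region, against 77.2% of all protein-coding genes. So did all 13 class I genes outside the M family. The number of regions in that span averaged 2.04 ± 2.24 per class I gene and 3.22 ± 1.39 per class II gene (SD over genes), with 2.5 ± 3.04 over all protein-coding genes. The class II mean lay above that of all genes with 10 kb flanks but below it for the gene alone (1.33 against 1.7), with 5 kb flanks (2 against 2.1) and with only regions of at least the median width (1.33 against 1.52). Class I genes without the M family averaged 3.38 ± 2.36 and M genes 0.583 ± 0.669. MHC genes are short, with a median length of 4634 bp over the protein-coding members against 17187 bp over all protein-coding genes, so flanks make up most of the span counted. In all, 98 distinct regions lay in or within 10 kb of the 54 members on assembled chromosomes, and 28 of them were counted for more than 1 member.

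**Figure D1:**
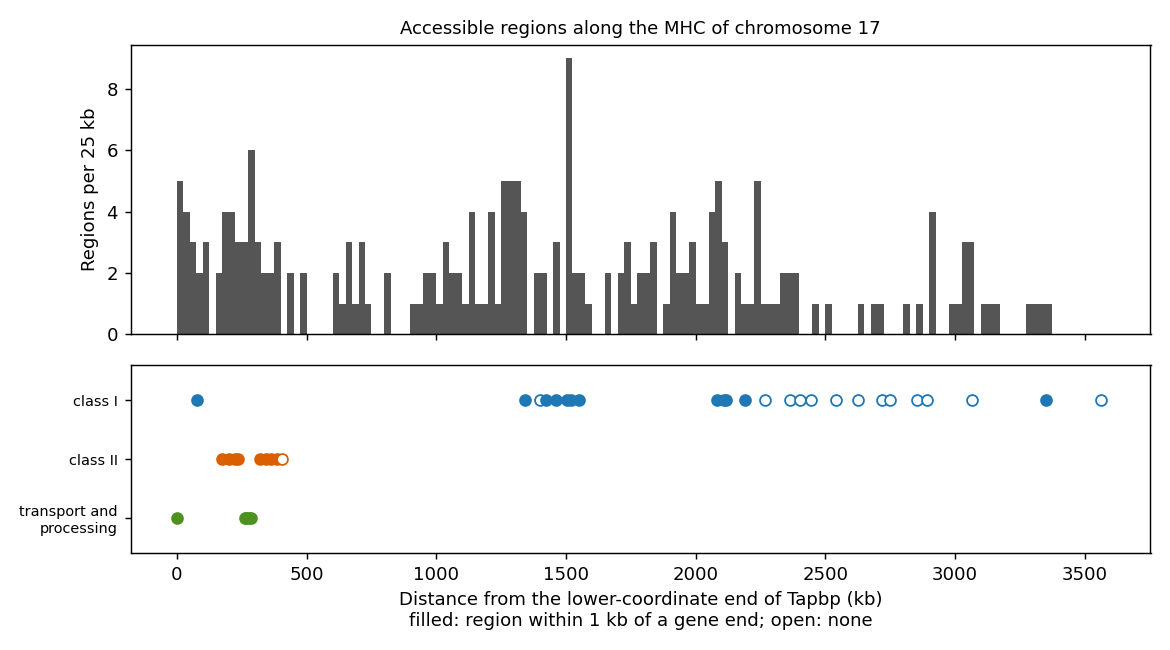
Accessible regions along the MHC of chromosome 17, as the number of region middles per 25 kb (upper panel) against the distance in kb from the lower-coordinate end of Tapbp. In the lower panel each circle is a protein-coding member, filled where a region lay within 1 kb of a gene end; the open circles of class I are mostly the M family at the right, where regions are sparse.

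The density of regions differed along the complex. From Tapbp to H2-Ke6, a gene of a steroid dehydrogenase that shares only the H2- prefix, there were 16 regions in 109 kb (14.7 per 100 kb). The interval from H2-Oa to H2-Ea, which holds the class II genes and also Psmb8, Psmb9, Tap1 and Tap2, had 31 regions in 252 kb (12.3 per 100 kb). From H2-D1 to H2-Q10 there were 9.93 per 100 kb, and from H2-T24 to H2-T3 there were 6.96. The M interval from H2-M10.2 to H2-M2 held 28 regions in 1200 kb, or 2.33 per 100 kb, with 1 stretch of 120 kb without a region. Chromosome 17 as a whole had 3.08 per 100 kb, and the 19 autosomes averaged 2.65 ± 0.241 (SD over chromosomes). In the M interval the other protein-coding genes had few regions at their ends as well, 7 of 30. Over the whole complex, 1 of 16 neighbouring olfactory receptor genes had a region at an end, and 72 of the 114 other neighbours. The neighbours with the most regions within 10 kb were Ddx39b, Ltb and Tnf with 7 each, followed by Gnl1, Lst1, Lta and Nfkbil1 with 6 each.

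The classical class I genes H2-K1 and H2-D1 each had a broad region centred close to the start site. At H2-K1 (chromosome 17, 33996012 to 34000619) the region was 1057 bp wide, at 33999755 to 34000811, and reached from 478 bp before to 578 bp after the second of its 2 annotated start sites, at 34000333; the promoter printed above belongs to the first, at 34000347. H2-D1 (35263094 to 35267497) had a region of 861 bp, at 35262652 to 35263512, which reached 442 bp before and 418 bp after the start site. A second region of 268 bp began 896 bp into H2-D1. B2m (chromosome 2, 122147687 to 122153082) had a single region, which was the widest of all 98 at 1835 bp (122147038 to 122148872). It began 649 bp before the start site of B2m and ended 1185 bp inside the gene, and it lay wholly inside the annotated span of Patl2. The third widest, of 1257 bp (33981072 to 33982328), lay outside the class I pseudogene H2-K2 at an end of the long noncoding RNA gene AA388235.

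The Q and T genes encode nonclassical class I molecules, which vary less between individuals and include ligands of innate-like lymphocytes. H2-Q4, H2-Q6, H2-Q7 and H2-Q10 had a region over the promoter, with widths of 987, 553, 830 and 269 bp. H2-Q7 encodes Qa-2, and H2-Q10 is known for a secreted product of the liver; its region was the narrowest of the 10 at class I promoters. H2-Q6 had 8 regions within 10 kb and H2-Q7 had 5, and 3 of these were shared between the pair. H2-Q2 had only a region of 164 bp that began 322 bp after the start site. H2-Q1 had none at an end and 1 of 444 bp inside the gene.

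Among T genes, H2-T23, which encodes Qa-1, a ligand of the inhibitory receptor on natural killer cells, had a region of 1207 bp over the start site. H2-T22, whose product is bound by some gamma-delta T cell receptors, had 1 of 876 bp, and this region also lay at an end of the gene model Gm6034. H2-T-ps, annotated as protein-coding despite its name, had 1 of 1072 bp, at an end of the pseudogene BC023719 as well. H2-T24 had a region at each end, of 513 and 733 bp, and 8 within 10 kb. Both regions at its ends, and the region of H2-T23, lay inside the long noncoding RNA gene A930015D03Rik. H2-T3, which encodes the thymus leukaemia antigen of intestinal epithelium, had none at an end, and its nearest region lay 6.19 kb away. With regions at the end of another protein-coding gene left out, 11 of 25 class I genes and 8 of 9 class II genes still had a region at an end. Regions inside another gene but not at its end were kept. The only end region of H2-DMa, of 1051 bp inside the neighbouring gene Brd2, was among them.

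Of the 12 M genes, only H2-M3, which presents formylated bacterial peptides, had a region at an end. That region was 1534 bp wide (37269909 to 37271442), the second widest of the 98, and covered the start site from 325 bp before to 1208 bp after. The 6 genes H2-M10.1 to H2-M10.6, known from vomeronasal neurons, had 0 regions inside the gene, and 4 of them had none within 10 kb. H2-M11 and H2-M5 had 1 narrow region each inside the gene, of 219 and 157 bp. H2-M1, H2-M2 and H2-M9 had none inside the gene, and the nearest region to H2-M2 was 54.8 kb away. Over the 11 M genes without a region at an end the median distance to a region was 10224 bp.

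**Figure D2:**
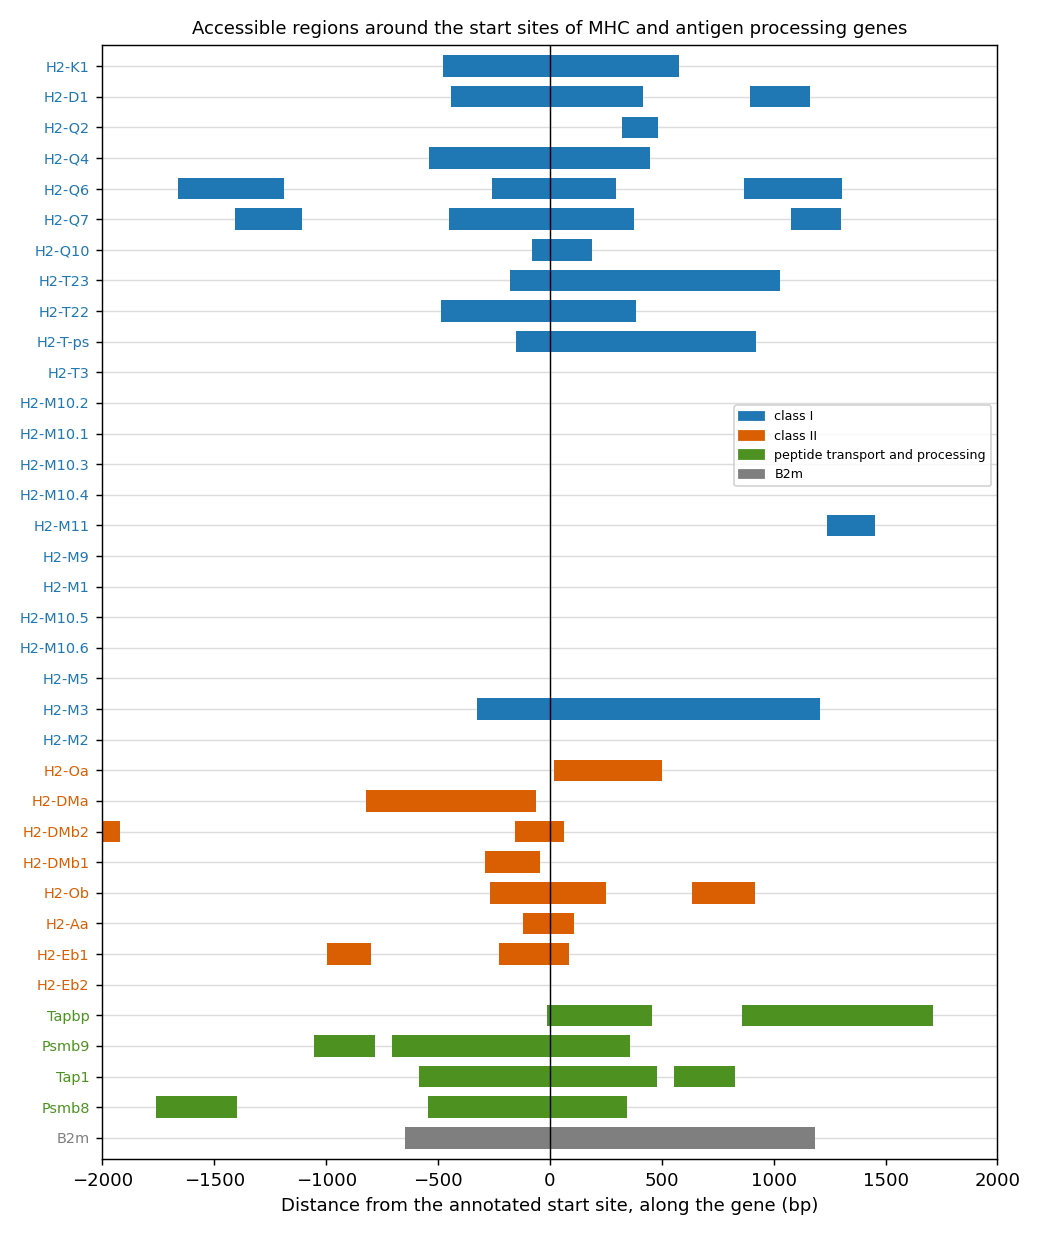
Accessible regions (bars) within 2 kb of the annotated start site, drawn along the direction of each gene, for the protein-coding class I, class II and processing members and B2m that have a promoter entry; where a gene has 2 start sites, each region is placed relative to the nearer one. Bars at class I promoters are 269 to 1534 bp wide and those at class II promoters 224 to 761 bp, and the rows of the M genes other than H2-M3 and H2-M11 are empty.

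The class II genes had narrow regions over or close to their start sites. The I-A genes H2-Ab1 and H2-Aa encode the chains of 1 class II molecule. H2-Ab1 (34263227 to 34269418) had a region of 382 bp over its lower-coordinate end, at 34263081 to 34263462, and has no promoter entry. H2-Aa (34282744 to 34287823) had a region of 229 bp, at 34287713 to 34287941, which reached 118 bp before and 110 bp after the start site. H2-Eb1 (34305867 to 34316674), the gene of the I-E beta chain, had a region of 316 bp from 228 bp before to 87 bp after the start site, and a second of 199 bp that began 997 bp before it. Between H2-Aa and H2-Eb1 lay a region of 699 bp (34293455 to 34294153), which began 6330 bp before the start site of H2-Aa, the widest within 10 kb of either gene.

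The genes of the peptide editor DM and of its modulator DO were also marked. H2-DMb1 had a region of 245 bp that ended 45 bp before its start site. H2-DMb2 had 224 bp from 158 bp before to 65 bp after its annotated start, and a further 291 bp over its lower-coordinate end. H2-Ob had 522 bp centred on the start, and H2-Oa had 484 bp that began 18 bp after the start. H2-DMa overlaps the neighbouring gene Brd2, which encodes a bromodomain protein. Its region of 761 bp (34122010 to 34122770) lay at an end of Brd2, and its region of 1051 bp lay inside Brd2. The nearest region to the other annotated start site of H2-DMa lay 2.75 kb away. H2-Eb2 was the exception among the 9, with no region inside the gene or at its ends; the nearest to its start site lay 19.7 kb away. Of class I pseudogenes, 4 of 8 had a region at an end, H2-K2, H2-Q5, H2-Bl and H2-T10. The 3 class II pseudogenes H2-Ea, H2-Pa and H2-Pb had 0, with an upper bound of 70.8%, and both intervals include 52.7%.

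Regions at class II promoters were narrower than those at class I promoters. A region overlapped the promoter of 10 of the 23 class I genes with an entry and of 7 of the 8 class II genes, against 49.2% of 17492 protein-coding genes. The widths at class I promoters were 269 to 1534 bp with a median of 931.5 bp, and 7 of 10 exceeded 837 bp, the median of all 8900 regions at promoters. At class II promoters the widths were 224 to 761 bp with a median of 316 bp, and 0 of 7 exceeded it. The 2 ranges overlapped. Narrow regions were not particular to class II. At the 8 promoters of naive CD4 T cell markers with an entry, the widest region measured 234 to 1249 bp, with a median of 478 bp. The middle of the region lay before the start site for 4 of 10 class I regions and 6 of 7 class II regions, against 50.9% of all regions at promoters. Among those 6, the middles at H2-Aa and H2-Ob were at -4 and -7.5 bp, close to the start site. That of H2-DMa, at -442 bp, belongs to the 761 bp region at an end of Brd2, the widest at a class II promoter. Width is the only size that the list holds; it depends on how the authors called and joined peaks, and it is not a signal level.

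The class I and class II promoters differed in how accessibility went with CpG dinucleotides, which are frequent in the promoters of widely used genes. The limit of 4 CpG per promoter was chosen after the values were seen. Over all protein-coding genes, 7.33% of promoters with 0 to 4 CpG had a region (374 of 5101, 95% exact interval 6.63 to 8.08%), and 66.5% of those with 5 or more. Class I followed this pattern, with 0 of 12 promoters of 0 to 4 CpG (an upper bound of 26.5%) and 10 of 11 with 5 or more (90.9%, 58.7 to 99.8%). Of those 12, all but H2-Q2 and H2-T3 were M genes, and H2-M3 was the only M gene among the 10. For class I, CpG number therefore cannot be told apart from family and place in the complex. Class II did not, since 6 of its 7 promoters with 0 to 4 CpG had a region (85.7%, 42.1 to 99.6%). Among them, H2-Eb1 had 0 CpG, H2-Ob had 2 and H2-Aa had 3. The only class II gene above the limit was H2-DMa, whose first listed start site, at Brd2, had 29 CpG. Its other start site, 2.75 kb from the nearest region, does not enter these counts. Low CpG number went with narrower regions in general, but not to the same degree, as the 388 regions at such promoters had a median width of 683.5 bp.

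**Figure D3:**
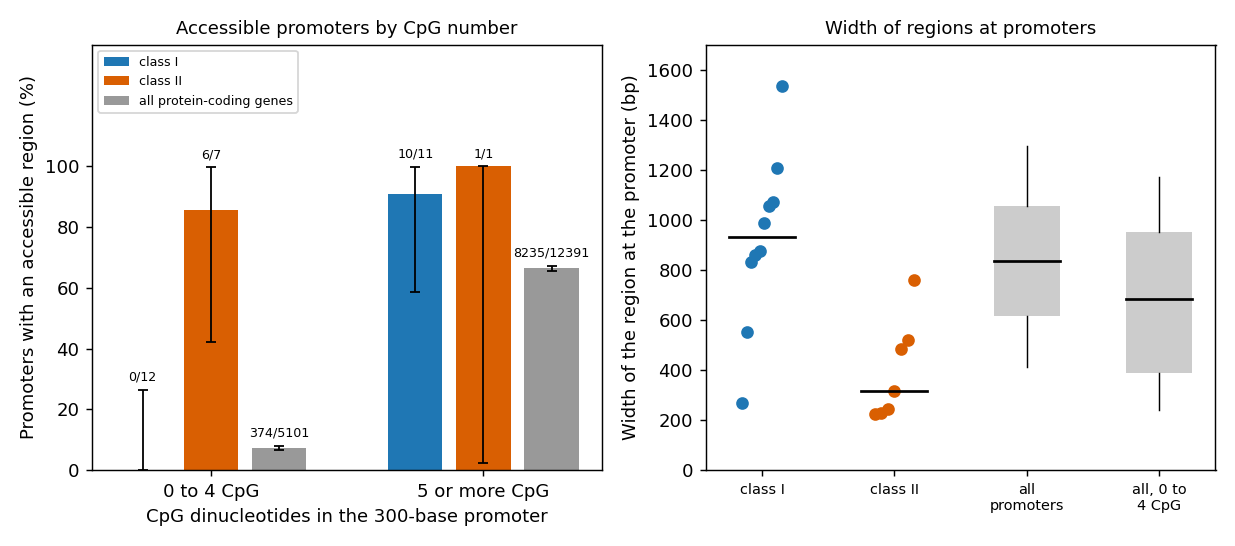
Left, share of genes with an accessible region in a 300-base promoter, by the number of CpG dinucleotides in the first listed promoter, for class I, class II and all protein-coding genes. Error bars are 95% exact intervals, topped by the counts. Right, width in bp of each region at a class I or class II promoter (points, bar at the median), beside all promoter regions and those with 0 to 4 CpG (box from 25th to 75th percentile, line from 10th to 90th); class II points lie below 800 bp.

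Some motifs differed in share between the promoters of the 2 classes, with no test run and only 8 class II promoters. CCAAT on either strand was common in both, in 20 of 23 class I and 8 of 8 class II promoters. A motif match is a description of these letters and not a bound site. NF-kB matches (GGANTNNCC, both strands) were present in 9 of 23 class I promoters (39.1%) and 2 of 8 class II promoters, against 15.4% of all protein-coding promoters. Among class I promoters they were in 8 of the 10 with a region and in 1 of the 13 without, that of H2-M2. Over all protein-coding genes they were in 1425 of 8609 promoters with a region (16.6%) and in 1262 of 8883 without. The promoters of H2-K1, H2-D1, H2-Q4, H2-Q6, H2-Q7 and H2-Q10 were 69.6 to 82.6% identical to their most similar member. Their matches are therefore not independent of one another. At H2-Q10 the match lay outside the region. At H2-K1, H2-D1 and H2-Q6 overlapping matches on both strands formed 1 stretch, printed in capitals above for H2-K1 and H2-D1. The interferon element GAAANNGAA was found in H2-T23, H2-T22 and B2m, and in 9.43% of all promoters. TATAAA was present in 14 of 23 class I promoters (60.9%), in 0 of 8 class II promoters and in 14.8% of all. The M genes did not lack these general elements, with TATAAA in 8 of 12 and CCAAT in 11 of 12.

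All 8 class II genes with a promoter entry held the CCAAT element in the orientation of the Y box, ATTGG along the gene. The share over all protein-coding genes with an entry was 25.7%. At H2-DMa it lay in the promoter of the start site without a region, which the CpG counts above leave out. For class I this orientation was found in 12 of 23, and in 7 of 11 outside the M family, so it was not particular to class II. The X box letters AGNAACNG were found in 4 of 8 class II promoters, H2-Oa, H2-DMb1, H2-Eb1 and H2-Eb2, and in 18.9% of all. In H2-Oa the letters lay across the start site on the other strand. In H2-Eb1 the X box began 92 bases and the Y box 59 bases before the start site, 33 bases apart. H2-Eb2 had the same pair 33 bases apart, at 133 and 100 bases before its start site, and H2-DMb1 had it 34 bases apart. The boxes of H2-Eb1 and H2-DMb1 lay inside accessible regions, while those of H2-Eb2 did not. This spacing was noticed in these genes and then counted in all others. Among 17492 genes only 4 had it, these 3 and Mylk4, which encodes a muscle kinase and had no region at an end. H2-Aa had no exact match to the X box letters, and a search for exact letters can miss variant forms. It held the full CRE letters TGACGTCA, found in 2.54% of all promoters. TGACG, the shorter form of the CRE, was in 11 of 23 class I promoters and 26.2% of all. TGACG lies within TGACGTCA, and at H2-M3 a CCAAT match overlapped the NF-kB match.

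All 5 genes of peptide cutting, transport and loading had a region at an end (95% exact interval 47.8 to 100%), an interval that includes the background of 52.7%. Psmb9 and Tap1 are neighbours read in opposite directions, and 1 region of 1066 bp (34186971 to 34188036) covered both start sites. It reached 706 bp before the start of Psmb9 and 585 bp before that of Tap1. A region of 891 bp (34197649 to 34198539) covered the start of Psmb8 and lay within 1 kb of the far end of Tap1. Tap2 had 3 regions at its lower-coordinate end, of 331, 531 and 195 bp, and Tapbp had 471, 855 and 482 bp at its ends, the first also at an end of Zbtb22 and the last at an end of Rgl2. The 5 genes had 3 to 7 regions within 10 kb, on 14 distinct regions. Their 4 promoters with an entry, which excludes Tap2, had 11 to 17 CpG and all had a region.

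The transactivator genes differed. Nlrc5 (chromosome 8, 94434335 to 94527272) had a region of 866 bp over its lower-coordinate end (94433792 to 94434657), where a long noncoding RNA gene also lies, and 3 more inside the gene, of 651, 154 and 441 bp. Ciita (chromosome 16, 10480014 to 10531064) had no region at either end. Its only region within 10 kb was 308 bp wide (10509515 to 10509822) and began 29.5 kb into the gene from the lower-coordinate end. Neither gene has a promoter entry, so no start site could be set against these regions.

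Of 16 other genes of the class I pathway, all 16 had a region at an end. They included Irf2 with 13 regions within 10 kb, Tapbpl, a tapasin-like gene, with 6, and the chaperone gene Calr and the interferon regulator Irf1 with 4 each. Of 16 other genes of the class II pathway, 12 had one (75%, 95% exact interval 47.6 to 92.7%). The share over all protein-coding genes, 52.7%, lay below the interval of the class I pathway genes (79.4 to 100%) and inside that of the class II pathway genes. The 4 without were Marchf1, a ubiquitin ligase that removes class II from the surface, the NF-Y subunit gene Nfyc, the protease gene Ctss and Rfx5 of the X box complex. Inside the gene, Marchf1 had 11 regions, Nfyc had 3, and Ctss and Rfx5 had 1 each. All 16 class II pathway genes had a region inside the gene, against 65.6% of all protein-coding genes. Cd74, the gene of the invariant chain that escorts class II molecules, had 1 region at an end.

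Cells that carry class II could be present in a purified naive T cell sample. Of 8 B cell markers, Ebf1 and Cr2 had a region at an end, and Ms4a1 had 0 regions within 10 kb. Cd79a and Cd79b had 0 at an end and inside the gene, and Cd79a had 4 within 10 kb. Inside the gene, 4 of 8 B cell markers had a region, with 5 each in Ebf1 and Pax5. Of 10 dendritic cell and macrophage markers, Itgax, Spi1, Xcr1 and Csf1r had a region at an end, and Lyz2 had 0 within 10 kb. Inside the gene, 7 of these 10 had a region, with 5 in Zbtb46 and 3 in Flt3. Of the markers with a promoter entry, a region lay in the promoter of 1 of 4 for B cells and 0 of 7 for dendritic cells and macrophages, against 8 of 8 for naive CD4 T cells and 49.2% of all promoters. Because the list has no signal level, the part of such cells in the class II regions was not tested.

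Reads from near-identical copies are hard to place, and the sources used here do not say how they were handled. Between the promoters of the 37 members with an entry, identity in pairwise alignment had a median of 50.5% over 666 pairs. The pseudogenes and the members on extra scaffolds were not compared, so closer copies among them would be missed. The closest pair among those compared was H2-M10.3 and H2-M10.5 at 90.3%, and both were without a region. H2-T23 and H2-T-ps were 85.9% identical and H2-D1 and H2-Q10 were 82.6% identical, and all 4 had a region. Of the 14 promoters without a region, 8 had a copy at 78.5 to 90.3% identity, those of H2-M10.1 to H2-M10.6, H2-M9 and H2-M1. The other 6, H2-Q2, H2-T3, H2-M11, H2-M5, H2-M2 and H2-Eb2, were at 54.2 to 66.8% to their most similar member. The part of read placement in the regions listed was not tested.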

How the data were processed

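ATAC-seq of 4 libraries (DDX55 KO, 2; WT, 2) was deposited by the authors as 1 joint region list of start and end positions, with no other column of values. Per the submitters' processing notes the build was mm10 and the tools included MACS3 3.0.0b1 and SAMtools 1.15.1, besides Bowtie2 2.5.08 and fastp 0.12.4; their roles and settings, the joining of peaks, the shift of cut sites and the treatment of duplicates are unknown here. Depth per library is unknown. Starts were converted to 1-based positions. Genes came from the RefSeq table of GRCm38.p6, without rows on extra scaffolds. Both gene ends were used, since that table has no strand; start sites and strand came from the 300-base RefSeq promoters of 17492 protein-coding genes. Any overlap of 1 bp counted. Motifs were searched as exact letters on both strands. Identity is from global alignment (match 1, mismatch -1, gap opening -2, gap extension -0.5). The genes named were all protein-coding members, the 3 widest regions, members without a region at an end, and up to 4 pathway or neighbour genes by most regions; markers, genes tied with those neighbours, pathway genes without a region at an end and Mylk4 were also named. The members and lists were chosen with earlier results of these data known, and the CpG classes, width comparison, box spacing, M split and overlaps with other genes were chosen after the values were seen. Alternatives changed windows, flanks, overlap, region width, merging and gene kinds. Counting was tested on simulated data, with 0 differences over 200 genes. Python 3.11.15, NumPy 2.4.6, SciPy 1.17.1, Biopython 1.88 and Matplotlib 3.10.9 were used.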

Additional observations from a re-analysis of the deposited data

How the results depend on the processing

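The shares of class I and class II genes with a region at an end stayed inside their intervals under all 6 alternatives each, from 40 to 56% for class I and from 55.6 to 88.9% for class II, the lowest in both with only regions of at least the median width of 294 bp. That restriction brought class II to 5 of 9, beside 48.2% of all protein-coding genes. Regions per gene depend on the span counted. With the gene alone they were 0.72 for class I and 1.33 for class II, against 1.7 over all protein-coding genes, with 5 kb flanks 1.28 and 2 (2.1 over all), and with 20 kb flanks 3.08 and 5.56 (3.28 over all). With only regions of at least the median width, class II had 1.33 per gene, below the 1.52 of all genes. Using region middles, merging regions within 500 bp, adding pseudogenes or leaving out regions at ends of other genes moved neither mean by 1.5 times. No paired analysis was possible because the list has no value per library, and no replicate could be left out for the same reason. Depth per library is unknown, so regions missing from the list are not shown to be closed.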
